A study of Xenopus laevis with 15 samples.

Results

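The genes described here are fos and jun, which encode c-Fos and c-Jun, the subunits of the transcription factor AP-1. They were taken by gene symbol as the rows fos.L, fos.S, jun.L and jun.S, so 4 of the 42638 genes in the count table, and each pair was also summed. Xenopus laevis carries paired copies (homeologs) of many genes from an ancient genome doubling, and the endings .L and .S name the long and the short subgenome. All 4 copies passed the filter on low counts that left 24052 genes. The members were chosen with their values in these same groups known, so their levels and differences are given as a description, with no p-value.

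Xenobots are self-moving constructs that form when ectoderm (animal cap tissue) is cut from early frog embryos and heals. The tissue was wild type, was cut at stage 9, and developed for 7 days at 14 °C in dilute saline. RNA was pooled from 50 Xenobots for each of 15 libraries, which form 5 groups of 3. The ATP 4 h and ATP 0 h groups were collected 4 h after and immediately after a stimulus with 250 µM adenosine triphosphate. The extract 4 h and extract 0 h groups received instead a homogenate of 3 blastula embryos in 100 µL, diluted to 10 µL per 14 mL, with the same timing. The Ctrl group was collected before any stimulus. The labels do not say whether the 3 pools of a group came from separate clutches of eggs, so the errors measure the spread between these pools. An unstimulated 4 h group was not analysed here, so elapsed time and the stimulus cannot be told apart at 4 h. Nor was a sham-treated group, so handling and the stimulus cannot be told apart in the stimulated groups against Ctrl. In a pool, fewer cells of a type and less RNA per cell cannot be told apart either.

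c-Fos and c-Jun bind DNA as a dimer through a basic region next to a leucine zipper. c-Jun can pair with itself, whereas c-Fos needs a Jun partner. The fos gene is a classic immediate early gene: in mammalian cells growth factors, calcium and stress switch it on within minutes through the factors SRF, ELK1 and CREB, and its mRNA decays fast. The jun gene responds to JNK kinases and to AP-1 itself. In Xenopus animal caps AP-1 is known for its part in the response to FGF, and in epidermis generally for wound responses.

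The libraries held 12583039 to 20325075 expected counts, of which ribosomal RNA genes took 20.1% to 43.3%. Levels below are CPM, counts scaled to a common library size, with TMM factors that correct for a few very abundant genes; they are not per length, so genes and copies are not ranked by level. The labelled cell type is epidermal, and its markers were high: krt12.4, a keratin, had 3794 to 5948 CPM and itln1, a lectin of mucus-secreting skin cells, 3594 to 5767 CPM. Of the neural markers, neurod1 and elavl3 had a median of 0, sox2 reached 1.18 CPM at most, and ncam1 had 0.984 to 3.49 CPM. Muscle markers varied between libraries, with myh4 between 0.984 and 129.7 CPM.

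The fos level was highest in the ATP 0 h group and low in the other 4 groups. Directly after ATP, fos.L had 7.27, 10.4 and 9.65 CPM in replicates 1, 2 and 3 of ATP 0 h, against 3.73, 3.31 and 2.64 CPM in Ctrl. The short copy fos.S had 9.00, 15.1 and 8.40 CPM in ATP 0 h, against 4.19, 3.36 and 2.64 CPM in Ctrl. In both copies the 3 ATP 0 h libraries exceeded the Ctrl maximum, and ATP 0 h replicate 2 was the highest of all 15 libraries. With the copies summed, fos averaged 19.9 ± 4.89 CPM in ATP 0 h and 6.62 ± 1.32 CPM in Ctrl (SD, n = 3 each). The log2 fold change was 1.58 (SE 0.213), a 3.00-fold difference, and those of fos.L and fos.S alone were 1.49 (SE 0.226) and 1.67 (SE 0.253). Between libraries of the same replicate number the log2 difference was 1.04, 1.93 and 1.77. Among the 21002 genes with a mean of at least 1 CPM, fos.S had the 6th and fos.L the 11th highest log2 fold change in this comparison. Among all 24052 genes tested, by size in either direction, fos.S ranked 118th and fos.L 196th.

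**Figure D1:**
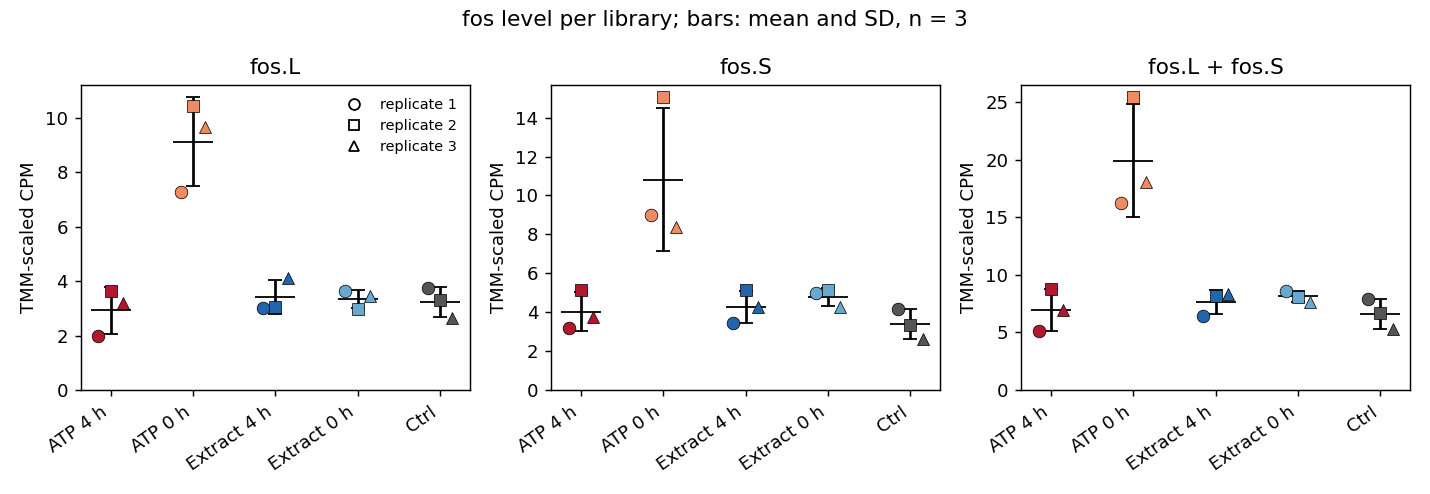
Level of fos.L, fos.S and their sum in TMM-scaled CPM (y axes) in each library of the 5 groups (x axes), with the replicate number as the symbol and the mean and SD (n = 3) as bars. The 3 ATP 0 h libraries lie between 16.3 and 25.5 CPM for the sum, above the other 12 libraries.

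At 4 h after ATP, fos lay in the Ctrl range or close to it. In ATP 4 h, fos.L had 1.97, 3.64 and 3.18 CPM, and fos.S 3.19, 5.15 and 3.73 CPM. The sum averaged 6.96 ± 1.82 CPM in ATP 4 h, 19.9 ± 4.89 CPM in ATP 0 h and 6.62 ± 1.32 CPM in Ctrl (SD, n = 3 each). Against ATP 0 h the log2 fold change of the sum was -1.52 (SE 0.211), and each ATP 4 h library lay below each ATP 0 h library. Against Ctrl it was 0.07 (SE 0.216), with overlapping libraries and with opposite signs for the copies, -0.14 for fos.L and 0.24 for fos.S.

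After the embryo extract, fos stayed near the Ctrl level. The long copy fos.L had 3.03, 3.05 and 4.13 CPM in extract 4 h, 3.63, 2.98 and 3.44 CPM in extract 0 h, and overlapped Ctrl at both times. The short copy fos.S had 3.44, 5.12 and 4.26 CPM in extract 4 h, against 4.98, 5.13 and 4.25 CPM in extract 0 h. The 3 extract 0 h libraries of fos.S exceeded the Ctrl maximum, by as little as 4.25 against 4.19 CPM, with a log2 fold change of 0.49 (SE 0.261). By comparison, 3.98% of the tested genes were higher in extract 0 h than in Ctrl without overlap. The summed multiciliated markers were likewise higher, at 552.4 to 587.4 CPM in extract 0 h against 498.7 to 551.9 CPM in Ctrl, and their part in the fos.S values was not tested. The summed fos averaged 7.67 ± 1.05 CPM in extract 4 h, 8.14 ± 0.462 CPM in extract 0 h and 6.62 ± 1.32 CPM in Ctrl (SD, n = 3 each), and its libraries overlapped between each of these groups. Directly after the stimulus the sum was higher after ATP than after the extract, with a log2 fold change of ATP 0 h over extract 0 h of 1.29 (SE 0.211) and no overlap. In that comparison 3 of the 4 copies, jun.S and both fos copies, were higher without overlap, where 6.89% of the tested genes were. The summed markers of small secretory cells were higher too, at 20.2 to 22.4 CPM in ATP 0 h against 17.1 to 19.9 CPM in extract 0 h, and their part in the difference was not tested. At 4 h, ATP over extract gave -0.14 (SE 0.214), with overlap. The change from 0 h to 4 h differed between the stimuli by -1.43 (SE 0.300) on the log2 scale, ATP minus extract.

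In order of its summed level, fos was highest in ATP 0 h, followed by extract 0 h, extract 4 h, ATP 4 h and Ctrl. The step between ATP 0 h and extract 0 h was 11.8 CPM, where the larger SD of the pair was 4.89 CPM. None of the other 3 steps, of 0.335 to 0.710 CPM, exceeded the larger SD of its neighbours.

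The jun level followed another order. It was high directly after ATP, and at 4 h it was lower after both stimuli than before them. In ATP 0 h, jun.L had 36.2, 33.0 and 27.9 CPM, against 26.2, 23.4 and 26.0 CPM in Ctrl. The copy jun.S had 31.8, 31.5 and 32.0 CPM in ATP 0 h, against 24.5, 19.4 and 26.0 CPM in Ctrl. Both copies exceeded the Ctrl maximum in the 3 ATP 0 h libraries, though for jun.L the nearest libraries were 27.9 and 26.2 CPM. The sum averaged 64.1 ± 4.05 CPM in ATP 0 h and 48.5 ± 4.98 CPM in Ctrl (SD, n = 3 each). Its log2 fold change of 0.40 (SE 0.128) is a 1.32-fold difference, smaller than the 3.00-fold difference of fos. All 4 member copies were thus higher in ATP 0 h than in Ctrl without overlap, where 5.4% of the tested genes were; the members were chosen on this comparison among others, so nothing is read from the count. The summed markers of multiciliated cells were also higher in ATP 0 h than in Ctrl without overlap (565 to 657 against 499 to 552 CPM), as were those of ionocytes (371 to 389 against 319 to 364 CPM). All 4 multiciliated markers and all 3 ionocyte markers were found, none was at 0, and their part in the fos and jun differences was not tested. The multiciliated sum was mostly dnah9, with 351 to 505 CPM over the 15 libraries, where mcidas had at most 1.17 CPM.

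At 4 h after ATP, jun.L had 15.02, 17.8 and 17.1 CPM, and jun.S had 12.99, 18.3 and 18.1 CPM. Each of these libraries lay below each ATP 0 h and each Ctrl library of the same copy. The sum averaged 33.1 ± 4.43 CPM in ATP 4 h, 64.1 ± 4.05 CPM in ATP 0 h and 48.5 ± 4.98 CPM in Ctrl (SD, n = 3 each). The log2 fold change was -0.95 (SE 0.129) against ATP 0 h and -0.55 (SE 0.129) against Ctrl. The copies gave nearly the same values against ATP 0 h, -0.96 (SE 0.128) for jun.L and -0.95 (SE 0.160) for jun.S. Between same-numbered libraries the sum differed by -1.28, -0.84 and -0.77. The replicate 1 pair had the largest difference of the 3.

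At 4 h after the extract, jun.L had 17.5, 19.0 and 17.7 CPM, against 29.6, 22.4 and 28.7 CPM in extract 0 h. The copy jun.S had 14.1, 16.2 and 18.9 CPM in extract 4 h, against 29.5, 21.7 and 24.1 CPM in extract 0 h. Each extract 4 h library lay below each extract 0 h library in both copies, and also below each Ctrl library. The sum averaged 34.5 ± 2.56 CPM in extract 4 h, 52.0 ± 7.47 CPM in extract 0 h and 48.5 ± 4.98 CPM in Ctrl (SD, n = 3 each). The log2 fold change was -0.59 (SE 0.129) against extract 0 h and -0.49 (SE 0.129) against Ctrl. Lower without overlap were 3.33% of the tested genes in extract 4 h against extract 0 h, 5.68% in extract 4 h against Ctrl and 4.47% in ATP 4 h against Ctrl. The comparisons with Ctrl use the same 3 Ctrl libraries, so they are not separate evidence. Summed multiciliated markers were higher without overlap in extract 4 h (599 to 606 CPM) than in extract 0 h (552 to 587 CPM) and in Ctrl (499 to 552 CPM), and their part in the jun difference was not tested.

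Extract 0 h and Ctrl did not separate for jun. The sum was 59.0, 44.2 and 52.8 CPM in extract 0 h, against 50.7, 42.8 and 52.0 CPM in Ctrl, a log2 fold change of 0.10 (SE 0.128). ATP 0 h over extract 0 h gave 0.30 (SE 0.128) for the summed jun, with libraries that did not overlap (59.9 to 68.0 against 44.2 to 59.0 CPM). ATP 4 h over extract 4 h gave -0.06 (SE 0.129), with overlap. The change from 0 h to 4 h differed between the stimuli by -0.36 (SE 0.182), ATP minus extract. In order of its summed level, jun was highest in ATP 0 h, followed by extract 0 h, Ctrl, extract 4 h and ATP 4 h. The steps between extract 0 h and Ctrl (3.48 CPM) and between extract 4 h and ATP 4 h (1.38 CPM) did not exceed the larger SD of their neighbours. The step between ATP 0 h and extract 0 h, of 12.1 CPM, exceeded the larger SD of 7.47 CPM. So did the step between Ctrl and extract 4 h, of 14.0 CPM, exceed its larger SD. The latter step divided the 0 h and unstimulated groups from the 4 h groups.

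**Figure D2:**
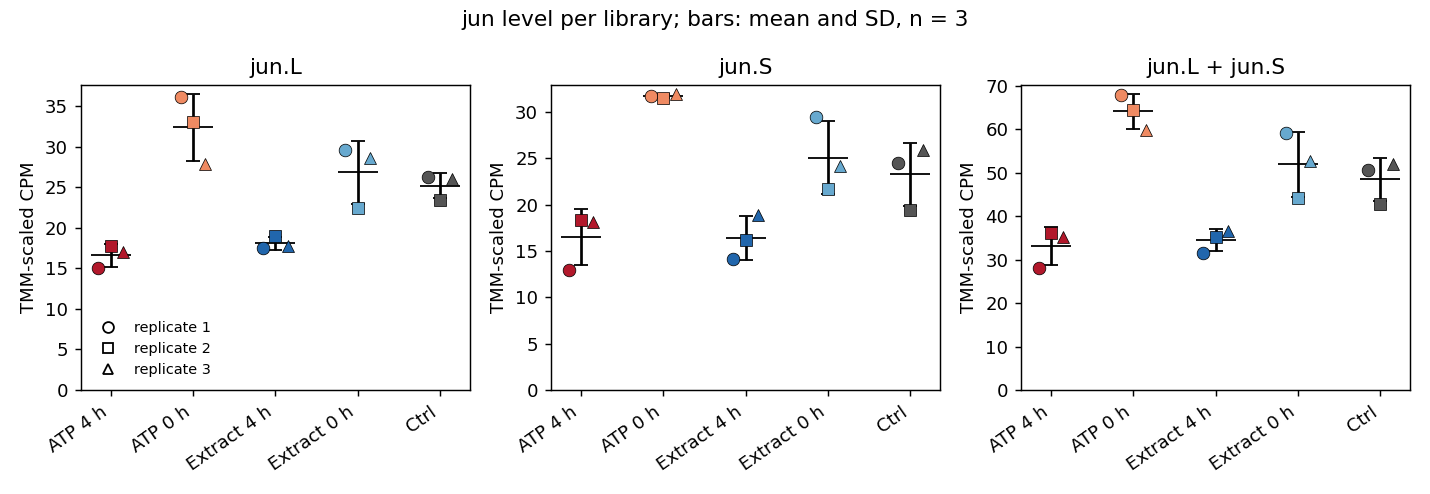
Level of jun.L, jun.S and their sum in TMM-scaled CPM (y axes) in each library of the 5 groups (x axes), with the replicate number as the symbol and the mean and SD (n = 3) as bars. The 6 libraries at 4 h lie between 28.0 and 36.6 CPM for the sum, below the 9 others, which start at 42.8 CPM.

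In the fit across all genes (edgeR's quasi-likelihood test, adjusted p-value under 0.05), 2 of the 4 copies, fos.L and jun.L, were among the 3 genes called between ATP 4 h and ATP 0 h, or 0.0125% of the genes tested. The members were chosen with their values in all 5 groups known. This count and each call of a member below, by any method, therefore describe them and are no support. With each of the 6 compared libraries left out in turn, fos.L was called in 0 fits and jun.L in 1 fit, that without ATP 0 h replicate 3. With homeologs summed, fos was the 1 gene of 18427 called between ATP 0 h and Ctrl (0.00543%), and it was kept in 1 of 6 such fits, that without ATP 0 h replicate 1. Summed fos and jun were both called between ATP 4 h and ATP 0 h, where 3 genes were (0.0163%), and each was kept in 1 of 6 fits, that without ATP 4 h replicate 2. Calls were also lost without libraries outside the comparison. Over all 15 fits with a library left out, summed fos in ATP 0 h over Ctrl was kept in 3. In ATP 4 h over ATP 0 h, fos.L was kept in 5 of 15, jun.L in 7, summed fos in 3 and summed jun in 5. With the replicate number as a block, fos.S and jun.S were also called in this contrast (log2 fold changes -1.41 and -0.95), and the call of summed jun was lost (-0.95, SE 0.130). The block also called fos.S between ATP 0 h and Ctrl (1.65). Over all genes the block called 14 in ATP 4 h over ATP 0 h and 1 in ATP 0 h over Ctrl. All 4 copies were lower in ATP 4 h than in ATP 0 h without overlap, where 7.82% of the tested genes were. In the test averaged over both stimuli, jun.L and jun.S were 2 of the 14 genes called (0.0582%), and in the overall test fos.L and jun.L were 2 of 5 (0.0208%). By edgeR no member copy was called in the other 7 comparisons, where 1 gene was called in ATP 4 h over Ctrl (0.00416%) and 0 in the rest. DESeq2 called 5 genes in ATP 0 h over Ctrl, both fos copies among them, and 1 gene in ATP 0 h over extract 0 h, fos.L. In ATP 4 h over ATP 0 h it called 47 genes, all 4 copies among them. With no filter on low counts edgeR called 3 genes in ATP 0 h over Ctrl, both fos copies among them. In the authors' adjusted values of 28009 genes, tested with limma, both fos copies were called in ATP 0 h over Ctrl (345 genes called) and over extract 0 h (140). All 4 copies were called there in ATP 4 h over ATP 0 h (1170), jun.L in ATP 4 h over Ctrl (287) and both jun copies in extract 4 h over Ctrl (1227). Summed jun was also called there in extract 4 h over extract 0 h. The limma fit made no allowance for the adjustment already applied to these values, so its calls can be too many. With only the libraries of the groups compared in the fit, no copy or sum was called in any comparison of 2 groups. The averaged test called 12 genes under this setting, and the members were not looked up among them. With ribosomal RNA genes removed, the call of summed fos in ATP 0 h over Ctrl was lost (1.57, SE 0.217). In ATP 4 h against ATP 0 h the muscle list (3 of 4 markers found) summed to 79.2 to 172 CPM in ATP 4 h, against 3.99 to 56.3 CPM in ATP 0 h. The neural list (4 of 4 found) summed to 2.96 to 3.64 CPM in ATP 4 h, against 1.13 to 2.87 CPM in ATP 0 h. In that list neurod1 and elavl3 reached at most 0.058 and 0.116 CPM over the 15 libraries, against 3.49 CPM for ncam1. The ionocyte list summed to 277 to 363 CPM in ATP 4 h, against 371 to 389 CPM in ATP 0 h. The part of these markers in the fos and jun differences was not tested.

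**Figure D3:**
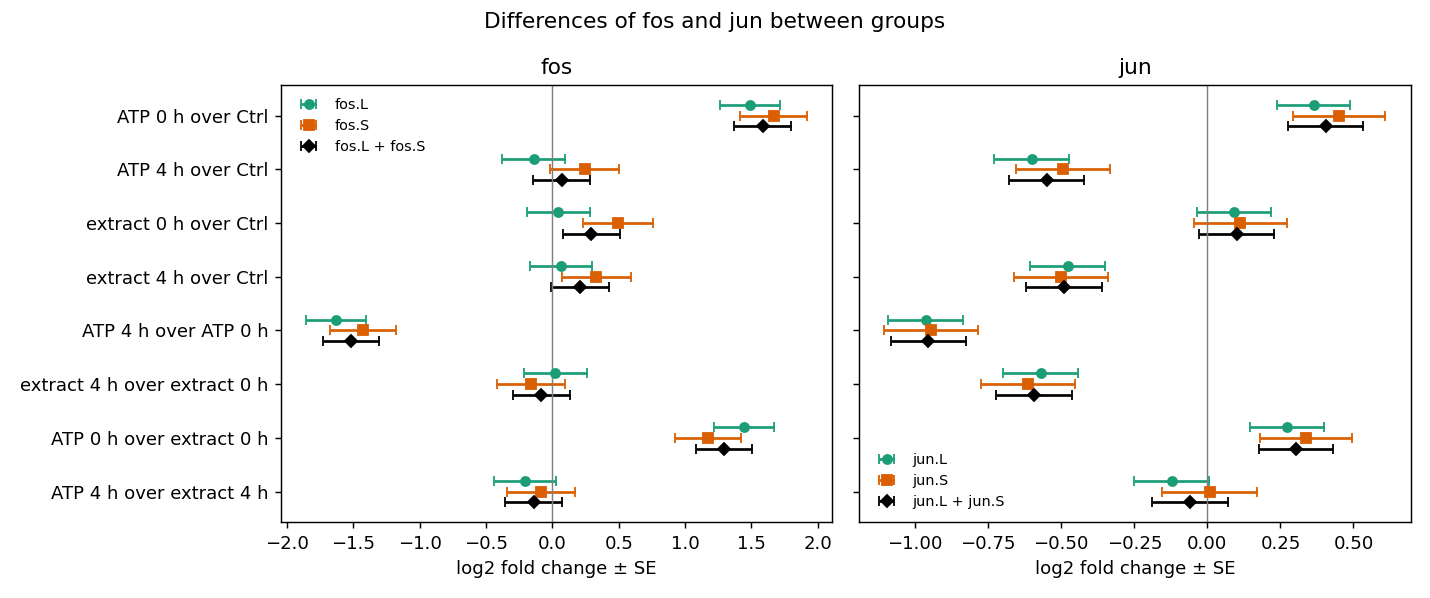
Log2 fold change with its standard error (x axes) of fos and jun, each copy alone and summed, in the 8 comparisons between groups (y axis). For fos the comparisons with ATP 0 h stand away from 0, up to 1.67 for fos.S, and for jun those of 4 h with 0 h or with Ctrl as well, down to -0.96 for jun.L.

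Seen per library, fos set ATP 0 h apart from the other groups, and jun also divided the 4 h groups from the rest. Over the 15 libraries the log2 CPM of summed fos and summed jun correlated with a Pearson r of 0.681 and a Spearman rho of 0.621. The 3 ATP 0 h libraries combined the highest summed fos with the highest summed jun (59.9 to 68.0 CPM). The Ctrl and extract 0 h libraries had fos between 5.29 and 8.61 CPM with jun between 42.8 and 59.0 CPM. The 6 libraries at 4 h had fos in much the same range, 5.16 to 8.80 CPM, with jun at 36.6 CPM or below.

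**Figure D4:**
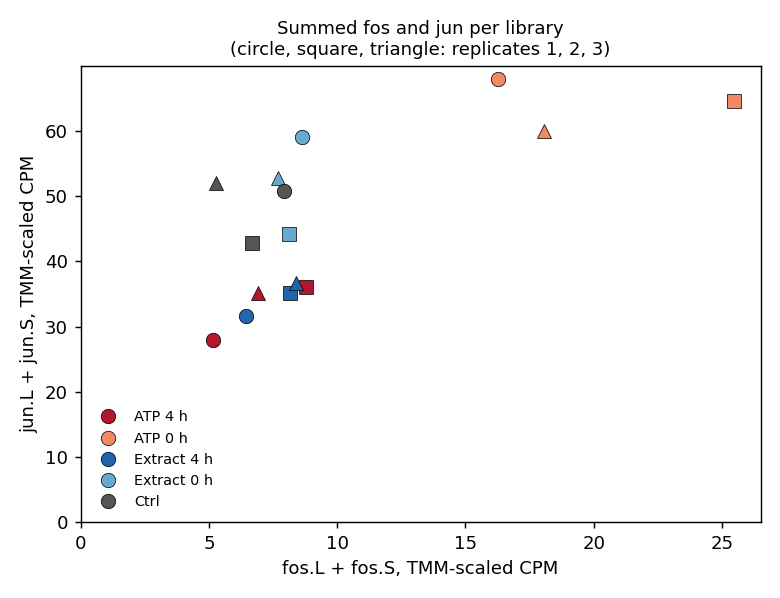
Summed fos (x axis) against summed jun (y axis) in TMM-scaled CPM, 1 point per library, with the group as the colour and the replicate number as the symbol. ATP 0 h lies at the upper right, and the 4 h libraries of both stimuli share a patch with jun at 28.0 to 36.6 CPM.

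Both copies of each pair were read in every library, with fos.S ahead of fos.L in most. The long copy held 36.8% to 53.4% of the fos counts of a library (median 44.7%) and 46.6% to 55.4% of the jun counts (median 51.2%). These shares are of reads and not per length. The fos.L share was below 50% in 13 of 15 libraries and above it in 1, and 44.2% (1081 of 2444 counts) over all of them. Its 95% Wilson interval contained 50% in 10 of 15 libraries and lay below it in the other 5. The jun.L share was above 50% in 11 of 15 libraries, and its interval contained 50% in 10 and lay above it in the other 5. The intervals cover counting error only. The mean share of fos.L was 46.4% ± 6.43 in ATP 0 h and 48.9% ± 1.58 in Ctrl (SD, n = 3 each), so the higher fos level in ATP 0 h came from both copies. Counts per library were 33 to 189 for fos.L, 33 to 273 for fos.S, 255 to 672 for jun.L and 205 to 590 for jun.S, so the fos levels rest on fewer reads. The counting tool split some reads between the jun copies: within 0.05 of a whole number were 3 of 15 values of jun.L, against 14 of 15 of fos.L, whereas the sum of each pair was whole in all 15 libraries. The summed values are therefore free of that split between the copies.

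The other Fos and Jun genes form the same dimers. JunB and JunD can take the place of c-Jun, and FosB, Fra-1 (fosl1) and Fra-2 (fosl2) that of c-Fos. The genes fosb and fosl1 were barely expressed, with 1 to 28 counts per library in their 4 copies. The copies fosl2.L and fosl2.S averaged 21.6 ± 1.96 and 16.5 ± 3.22 CPM in ATP 0 h, against 25.6 ± 2.23 and 17.4 ± 1.54 CPM in Ctrl (SD, n = 3 each), and neither passed the test (edgeR adjusted p = 0.984 and 0.985). For junb.L the level was 71.5, 76.1 and 70.4 CPM in ATP 0 h, against 56.4, 46.4 and 51.8 CPM in Ctrl, without overlap. Its log2 fold change was 0.50 (SE 0.152), which did not pass over all genes (edgeR adjusted p = 0.984). Also higher without overlap were junb.S (69.9 to 79.7 against 52.8 to 61.4 CPM) and jund.S (33.4 to 34.0 against 27.1 to 31.9 CPM), whereas jund.L overlapped. Neither junb.S nor jund.S passed over all genes (edgeR adjusted p = 0.984 each). Of all tested genes, 5.4% were higher in ATP 0 h than in Ctrl without overlap. In ATP 4 h, junb.L had 37.6, 51.9 and 44.9 CPM, a log2 fold change against ATP 0 h of -0.70 (SE 0.152; edgeR adjusted p = 0.335). The copy junb.S gave -0.66 (SE 0.190; edgeR adjusted p = 0.469) in the same contrast. After the extract, 4 h over 0 h gave -0.01 (SE 0.152) for junb.L and -0.06 (SE 0.190) for junb.S, where the jun copies gave -0.57 (SE 0.128) and -0.62 (SE 0.161). Whether junb and jun differ in this was not tested. The rule also named maf.L, a large Maf factor gene, at 0.874 ± 0.297 CPM in ATP 4 h (SD, n = 3) and 0.856 to 2.42 CPM in ATP 0 h. Its lowest mean was that of extract 4 h, 0.456 ± 0.346 CPM, against 1.20 ± 0.351 CPM in Ctrl (SD, n = 3 each). Extract 4 h over Ctrl gave a log2 fold change of -1.41 (SE 0.524; edgeR adjusted p = 0.661), and ATP 4 h over ATP 0 h -0.78 (SE 0.478; edgeR adjusted p = 0.613). For jund.S, ATP 4 h over ATP 0 h gave -0.35 (SE 0.124; edgeR adjusted p = 0.530), and for jund.L -0.28 (SE 0.197).

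**Figure D5:**
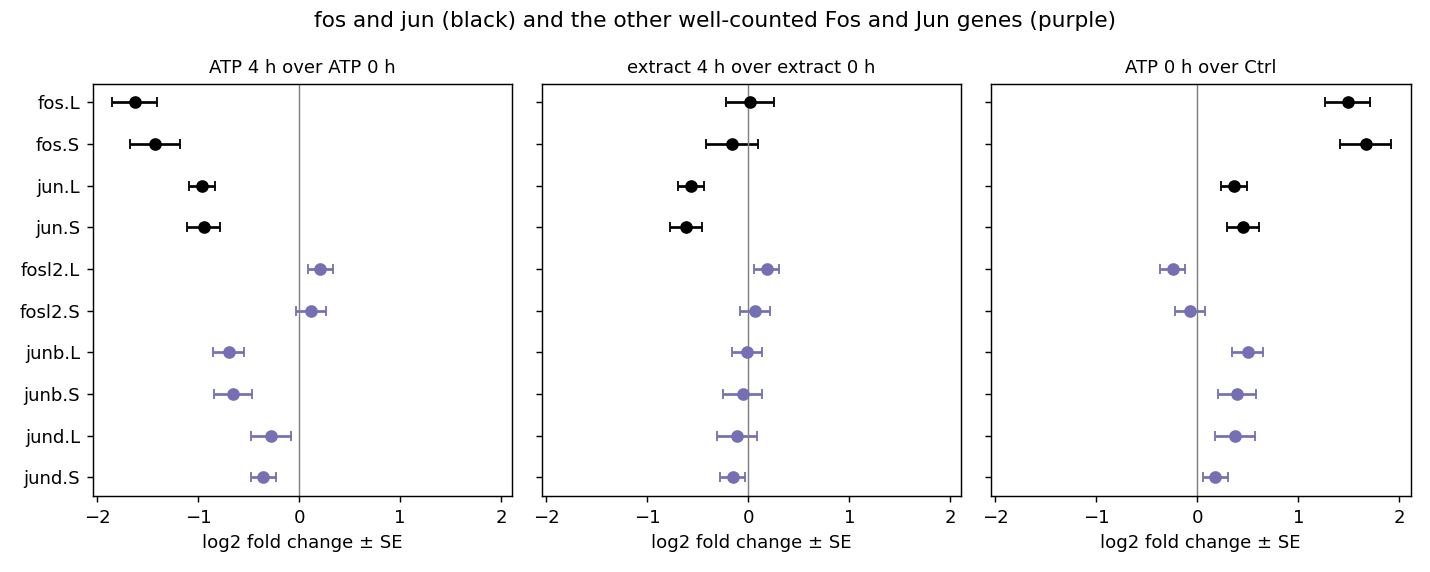
Log2 fold change with its standard error (x axes, shared scale) of the fos and jun copies (black) and of the fosl2, junb and jund copies (purple) in 3 comparisons. In ATP 4 h over ATP 0 h the junb copies lie at -0.70 and -0.66, between jun and 0, whereas in extract 4 h over extract 0 h they lie near 0.

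A further 4 lists of AP-1 genes were read in the same fit, with 116 gene copies tested. They hold the other subunits (23 copies tested of 30 found) and kinases and transcription factors upstream of fos and jun (42 of 44). They also hold brakes on fos and jun (18 of 19) and genes known as AP-1 targets in mammals (33 of 38). Not every listed symbol was matched: 16 of 18, 25 of 33, 11 of 15 and 23 of 30 were found, in that order. No copy was called by edgeR in any of the 9 comparisons run, the 8 above and 4 h against 0 h averaged over both stimuli, in which 0% to 0.0582% of all tested genes were called. Among the 116 copies, those with an unadjusted p-value under 0.05 numbered 5 in ATP 0 h over Ctrl (4.31%, against 3.58% of all tested genes), 1 in ATP 4 h over Ctrl (0.862% against 3.29%), 10 in extract 0 h over Ctrl (8.62% against 4.53%) and 6 in extract 4 h over Ctrl (5.17% against 7.27%). They numbered 0 in extract 4 h over extract 0 h (against 2.37% of all tested genes), 5 in ATP 0 h over extract 0 h (4.31% against 5.2%), 7 in ATP 4 h over extract 4 h (6.03% against 4.28%) and 19 in the averaged test (16.4% against 9.75%). DESeq2 called 1 copy, junb.L, lower in ATP 4 h than in ATP 0 h. In ATP 4 h against ATP 0 h, 16 of the 116 copies (13.8%) had an unadjusted p-value under 0.05, against 8.84% of all tested genes. These were 4 subunits, all lower; 4 upstream genes, all higher; 3 brakes, all lower; and 5 targets, of which 4 were higher. The median log2 fold changes were -0.02, 0.13, -0.09 and 0.05 in that order, and -0.0020 over all tested genes. The lists were chosen with earlier results of these data known, and the copies of a pair were counted separately, so these percentages are a description. The muscle list differed in ATP 4 h against ATP 0 h as given above, and its part in these counts was not tested.

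Among the upstream genes, crem.L, which encodes a relative of CREB, had the smallest p-value of the overall test among groups. It averaged 4.16 ± 0.413 CPM in ATP 4 h and 1.99 ± 0.240 CPM in Ctrl (SD, n = 3 each), a log2 fold change of 1.07 (SE 0.229; edgeR adjusted p = 0.775). The others named by rule were elk3.L, of the ELK family of SRF partners, at 2.94 ± 0.433 CPM in ATP 0 h and 5.90 ± 2.38 CPM in Ctrl (SD, n = 3 each), and mef2c.L, a MADS-box factor, at 2.60 ± 0.273 CPM in ATP 4 h and 0.969 ± 0.215 CPM in extract 4 h (SD, n = 3 each). Their edgeR adjusted p-values in these comparisons were 0.984 and 1. The muscle list was also higher without overlap in ATP 4 h (79.2 to 172 CPM) than in extract 4 h (3.54 to 24.1 CPM), and its part in the mef2c.L values was not tested. For elk3.L the libraries of ATP 0 h and Ctrl overlapped (2.59 to 3.42 against 3.21 to 7.74 CPM). Its mean was also below that of Ctrl in extract 0 h, 3.39 ± 0.474 CPM, and in extract 4 h, 3.70 ± 0.938 CPM (SD, n = 3 each).

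The brakes named by rule were MAP kinase phosphatases, which switch off the kinases that act on fos and jun. For dusp1.L the level averaged 14.9 ± 5.02 CPM in ATP 4 h and 25.2 ± 1.96 CPM in ATP 0 h (SD, n = 3 each), and for dusp1.S 17.4 ± 4.65 and 27.0 ± 1.06 CPM in the same groups. The log2 fold changes were -0.75 (SE 0.229) and -0.63 (SE 0.213), with edgeR adjusted p-values of 0.511 and 0.520. For dusp5.L, ATP 0 h over Ctrl gave 0.45 (SE 0.149; edgeR adjusted p = 0.984) and ATP 4 h over ATP 0 h gave -0.46 (SE 0.148; edgeR adjusted p = 0.515).

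Among the targets the rule named vim.S and vim.L, the copies of vimentin, an intermediate filament gene of mesenchymal cells, and cd44.S, a hyaluronan receptor gene. For vim.S the level was 4.10 to 6.51 CPM in ATP 4 h, 1.13 to 3.42 CPM in ATP 0 h, 0.262 to 1.38 CPM in extract 4 h, 0.984 to 1.45 CPM in extract 0 h and 1.52 to 8.95 CPM in Ctrl. The muscle list summed to 79.2 to 172, 3.99 to 56.3, 3.54 to 24.1, 2.28 to 11.9 and 9.94 to 145 CPM in the same order of groups, and its part in the vimentin values was not tested. The largest differences of vim.S were those of ATP 4 h over extract 4 h, with a log2 fold change of 2.56 (SE 0.613; edgeR adjusted p = 0.966), and of extract 4 h over Ctrl, with -2.49 (SE 0.613; edgeR adjusted p = 0.644). The log2 fold change of vim.S in ATP 4 h over ATP 0 h was 1.48 (SE 0.562; edgeR adjusted p = 0.548). For cd44.S it was 2.05 (SE 0.777; edgeR adjusted p = 0.545), at levels of at most 1.51 CPM in ATP 4 h. In Ctrl cd44.S had 0.160 to 1.61 CPM.

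The genes whose pattern was most like that of summed fos over the 15 libraries, by the Pearson correlation of log2 CPM among 20998 genes, were LOC108715040, LOC108705105, armc6.L, tuba1cl.3.L and XB5992703.S, with r from 0.854 to 0.879. Their differences were smaller than that of fos: for tuba1cl.3.L, ATP 0 h over Ctrl gave a log2 fold change of 0.58 (SE 0.176), and for LOC108715040 0.21 (SE 0.090). Those most like summed jun were ier5l.S, hsd17b12.S, tcim.L, rhob.S and ndc1.S, with r from 0.871 to 0.938. The first, ier5l.S, belongs to an immediate early family. It averaged 17.6 ± 1.47 CPM in ATP 4 h, 30.7 ± 1.55 CPM in ATP 0 h, 18.4 ± 2.69 CPM in extract 4 h, 27.4 ± 0.432 CPM in extract 0 h and 27.2 ± 0.925 CPM in Ctrl (SD, n = 3 each). As for jun, its 4 h groups were the lowest. These correlations share the libraries and their scaling, were picked as the highest of many, and describe likeness of pattern alone.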

How the data were processed

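Per the labels' protocols, stranded libraries depleted of ribosomal RNA were read from 1 end over 75 nt. The authors deposited RSEM's expected counts, per the file headers; fastp, STAR and limma are also named in the submitters' processing notes, while versions, genome build and annotation are not given in the sources used here. The authors also deposited log2 CPM values of 28009 genes with surrogate variables removed, which served only as an alternative, with limma. That fit had coefficients for the groups only and did not count the removed variables, so its p-values can be too small. Groups and replicate numbers come from the sample titles.

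Expected counts were rounded, filtered with filterByExpr, scaled with TMM and tested with edgeR 4.0.16 (R 4.3.3), a robust quasi-likelihood fit with 1 coefficient per group over 15 libraries and Benjamini-Hochberg adjustment over 24052 genes. Summed copies were fitted with all other homeolog pairs summed, under the same scaling. Standard errors are the log2 fold change over the square root of F. Log2 CPM in the correlations used a prior count of 2, and edgeR's log2 fold changes a prior count of 0.125. Log2 differences between same-numbered libraries used no prior count. The fit was tested on simulated data. No replicate pair agreed within sampling noise.

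The members and gene lists were chosen with earlier results of these data known. Named genes are the members, the other Fos and Jun genes, of each list the genes called or with the 3 smallest overall p-values, and the 5 genes most like fos and jun in pattern. Of the cell markers 3 symbols (krt5.7, des, muc2) were not matched. Ribosomal RNA genes were taken from a RefSeq gene table (Xenopus_laevis_v10.1). Deviations of same-numbered libraries correlated above 0.1 in all 3 replicates for 5 of 10 pairs of groups (0.158 to 0.494). All 3 pairs among ATP 4 h, ATP 0 h and Ctrl were included, so the numbers were taken to pair these samples. Extract 0 h also met the rule with ATP 0 h (0.250 to 0.314) and with Ctrl (0.186 to 0.290), but not with ATP 4 h. The main fit leaves this pairing out, so its standard errors and calls are unpaired, and the block is given as an alternative. For fos.S in ATP 0 h over Ctrl the SE was 0.253 without the block and 0.204 with it. Alternatives were the replicate block, DESeq2 1.42.0, RLE factors, no filter, ribosomal RNA removed, only the compared groups, the authors' table, homeologs summed first, each copy alone, and each library left out.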

Additional observations from a re-analysis of the deposited data

Results flagged for a closer look

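jun lay on opposite sides of the Ctrl mean at the 2 times after ATP, with each ATP 4 h library below it and each ATP 0 h library above it. The mean log2 difference from the Ctrl mean was -0.61 in ATP 4 h and 0.35 in ATP 0 h for jun.L, -0.52 and 0.45 in the same order for jun.S, and -0.56 and 0.40 for their sum. This was seen from the positions of the libraries. The calls of jun between ATP 4 h and ATP 0 h given above are no support, since jun was chosen with these values known. In the main edgeR fit neither jun copy nor their sum was called in ATP 4 h or ATP 0 h against Ctrl.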

How the results depend on the processing

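Of 400 values of summed fos and jun under other settings, 398 stayed within the replicate spread, 0 called values changed sign, and 391 kept their sign. Many of these values come from fits without 1 library. Leaving out 1 of 3 libraries can hardly move a group mean past that spread, so the count within it is no test of robustness. The calls depended more on single libraries, as given above. Summed fos in ATP 0 h over extract 0 h was 1.04 in the authors' adjusted table, and for extract 0 h over Ctrl the L copy alone gave 0.044. With a library left out, summed fos in ATP 0 h over Ctrl ranged from 1.37 to 1.73, and summed jun in ATP 4 h over ATP 0 h from -1.02 to -0.83. The listed AP-1 genes gave 0 calls in each fit without a library and with the replicate block. DESeq2 called 1 of them in ATP 4 h over ATP 0 h. The authors' table called 5 there, 1 in ATP 4 h over Ctrl, 2 in extract 0 h over Ctrl, 4 in extract 4 h over Ctrl, 1 in ATP 0 h over extract 0 h, 1 in ATP 4 h over extract 4 h and 11 in the averaged test; the cause was not tested. Over all genes, ATP 4 h over ATP 0 h called 3 genes, against 14 with the replicate block, 47 in DESeq2, 1170 in the authors' table, 0 from the compared libraries alone and 0 to 4 with a library left out. The averaged test called 14, against 42 with the block, 83 in DESeq2, 1772 in the authors' table, 7 with homeologs summed, and 3 (without extract 0 h replicate 1) to 37 (without extract 4 h replicate 3) with a library left out. The other 7 comparisons called 0 or 1 gene, against 0 to 7 with the block, 0 to 13 in DESeq2 and 140 to 1227 in the authors' table, and 3 in ATP 0 h over Ctrl with no filter. Counts per library were 33 to 273 for the fos copies, against 205 to 672 for the jun copies.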

Other observations

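Within both 4 h groups, replicate 1 had the lowest level in all 4 copies. In extract 4 h the next library was close for fos.L (3.03 against 3.05 CPM) and for jun.L (17.5 against 17.7 CPM). These replicate 1 libraries also had the lowest ribosomal RNA share of their groups, 21.0% in ATP 4 h and 20.1% in extract 4 h. The lowest share and the lowest summed jun also fell together in Ctrl replicate 2 (26.4%, 42.8 CPM) and extract 0 h replicate 2 (21.9%, 44.2 CPM). In ATP 0 h the library with the lowest share, replicate 1 (28.2%), had the highest summed jun (68.0 CPM). A link of this share with jun was not tested, and the refit below changes only the filter and the scaling. With ribosomal RNA genes removed before scaling, summed jun gave -0.94 (SE 0.131) in ATP 4 h over ATP 0 h and -0.59 (SE 0.131) in extract 4 h over extract 0 h. Under the same setting summed fos gave 1.57 (SE 0.217) in ATP 0 h over Ctrl, where its call was lost, and -1.50 (SE 0.216) in ATP 4 h over ATP 0 h, where it was kept.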
